A study of Rattus norvegicus with 18 samples.

Results

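The circadian clock genes described here are 10 genes of the rat intervertebral disc profile: the period genes Per1, Per2 and Per3, the cryptochrome genes Cry1 and Cry2, the activator genes Arntl (also named Bmal1) and Clock, the nuclear receptor genes Nr1d1 and Nr1d2, and the output gene Dbp. They were chosen by symbol, and each symbol had 1 row in a table of 18923 genes. RNA was measured by sequencing in nucleus pulposus, the gel-like core of the disc, of rats aged 2, 10 and 20 months. Each age had 3 libraries, which are the input libraries of a study of RNA methylation, made from poly(A) RNA before any immunoprecipitation. The labels give no treatment, genotype, strain or sex, and the animals differ by age alone as far as they say. They do not say at what hour tissue was taken. A difference in the hour of collection and a difference in age therefore cannot be told apart for any gene below. Whether the 3 libraries of each age stand for different animals is not said either. The p-values then describe no more than the scatter of these libraries, part or all of which may be technical. Between libraries of the same age, counting of reads alone would give a median chi-square of 0.455. The 2-month pairs gave 0.55, 0.64 and 0.65, and the 10-month pairs 0.54, 0.64 and 0.63. For the 20-month pairs it was 1.24, 1.40 and 1.33. Scatter was thus wider in the 20-month set, while the main fit used 1 spread per gene for all ages. What part of the scatter is technical was not tested.

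The clock of mammalian cells is a loop of transcription that runs over about a day. The proteins CLOCK and BMAL1 bind E-box sequences together and switch on the period and cryptochrome genes, whose products come back to the nucleus and block them. The same pair switches on Nr1d1 and Nr1d2, whose REV-ERB products repress Arntl, and the output genes Dbp, Tef and Bhlhe41. In rodent tissues Arntl RNA peaks at the opposite time of day from Dbp and Nr1d1, and disc cells of mice are known to hold such a clock. The level of a rhythmic gene at any 1 moment therefore depends on the hour.

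The libraries held 3.53 to 5.04 gigabases of aligned sequence, judged from the deposited coverage, and 11027 to 11447 genes per library had at least 1 FPKM (fragments per kilobase normalised for library depth, a level per length). The summed level of 13 nucleus pulposus markers was 32358 to 33736 FPKM at 2 months, 27680 to 27977 FPKM at 10 months and 27920 to 29226 FPKM at 20 months. The summed level of 9 skeletal muscle markers was 32.3 to 35.3 FPKM at 2 months and 22.9 to 24.5 FPKM at 10 months. At 20 months it was 5.53 and 5.58 FPKM in replicates 1 and 2 and 306 FPKM in replicate 3. That library stood apart from the rest, and calls of clock genes that it changes, with the values of several genes, are also given without it below. The sum of 5 red blood cell markers was 82.9 to 93.2 FPKM at 2 months, 9.57 to 10.6 FPKM at 10 months and 36.6 to 42.5 FPKM at 20 months. Sums for leukocytes, endothelium, bone, annulus and fat lay between 1.12 and 17.0 FPKM in every library, but differed between ages. Bone markers summed to 16.3 to 17.0 FPKM at 2 months, 10.1 to 11.3 FPKM at 10 months and 5.13 to 6.95 FPKM at 20 months. Annulus markers summed to 14.3 to 15.6 FPKM, 5.83 to 6.35 FPKM and 7.37 to 15.8 FPKM in the same order. Sums for leukocytes, endothelium and fat were highest at 10 months. Myh1, Myh2, Pecam1 and Mkx had no row, and no marker with a row was at 0 in all 9 libraries. The part of these markers in the results below was not tested. The read length inferred from the tables was 132 bases at 2 and 10 months and 141 bases at 20 months. In comparisons with 20 months, read length and age cannot be told apart.

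All 10 clock genes reached the level needed for testing, at least 1 FPKM in at least 3 libraries, as did 11708 genes in all. Dbp was the most abundant of them at 2 and 10 months and stood behind Per1, Nr1d1 and Cry2 at 20 months. At 2 months the order of mean levels was Dbp, Nr1d1, Cry2, Per1, Nr1d2, Per3, Arntl, Per2, Clock and Cry1, and in 0 of the 9 neighbouring pairs did the 3 libraries overlap. At 10 months the order was Dbp, Cry2, Per1, Nr1d1, Nr1d2, Per3, Per2, Arntl, Clock and Cry1, again with 0 overlapping neighbours. At 20 months Per1, Nr1d1 and Cry2 came first and could not be ordered by their libraries, Dbp followed, Nr1d2 and Arntl overlapped, and Per2, Per3, Clock and Cry1 came last. Cry1 had the fewest reads, an estimated 105 to 220 fragments per library, against 638 or more for each of the other 9 genes.

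**Figure D1:**
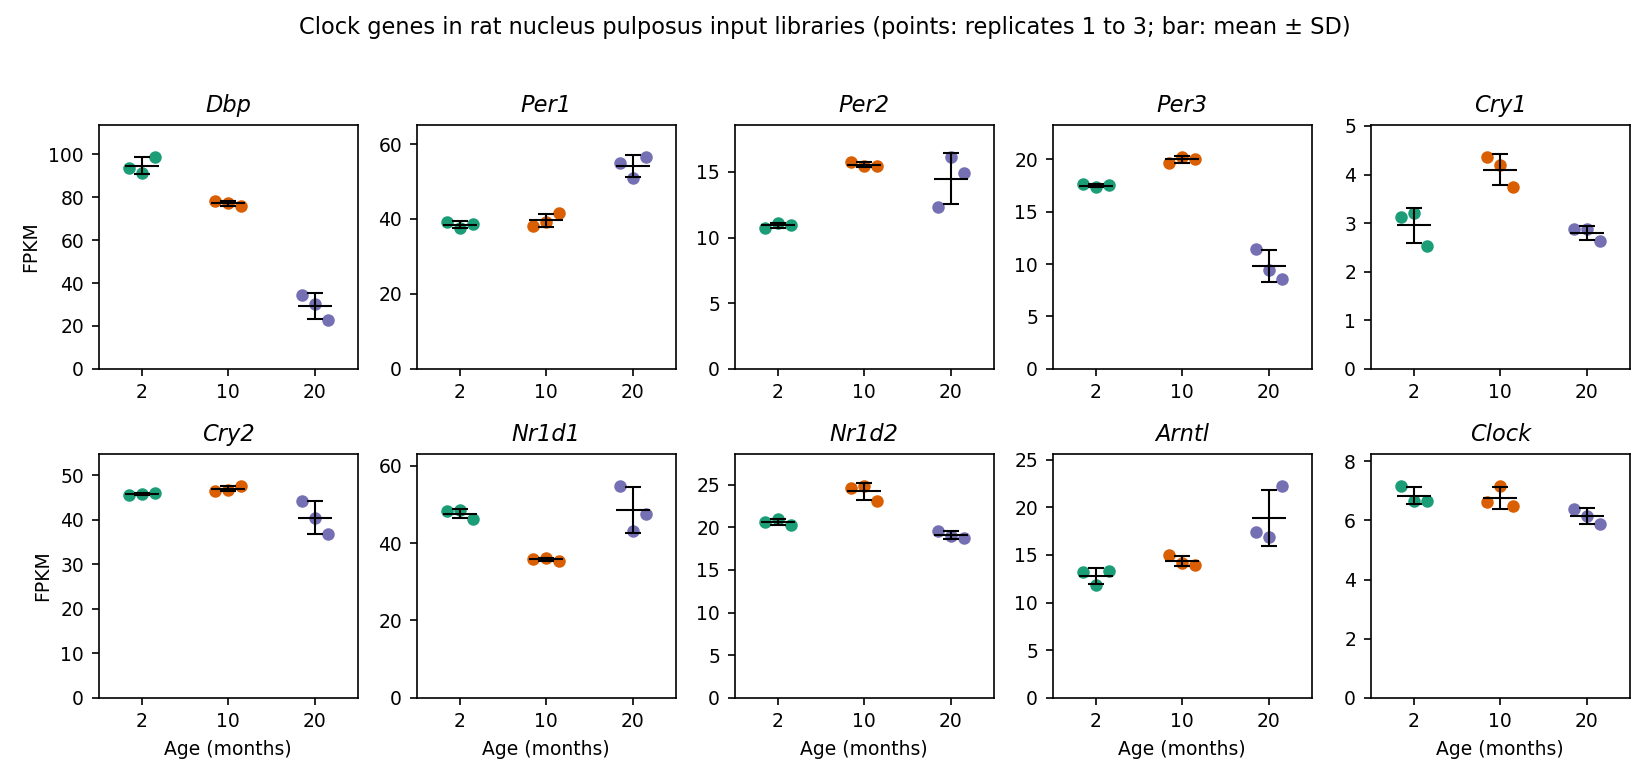
FPKM of the 10 clock genes (vertical axes start at 0 and differ between panels) in each input library at 2, 10 and 20 months; points are replicates 1 to 3 from left to right, bars the mean ± SD. Dbp fell to 29.2 FPKM on average at 20 months, while Per1 and Arntl were highest at that age.

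Dbp, which encodes a PAR-domain transcription factor that drives many rhythmic genes, showed the widest change. The gene (ENSRNOG00000021027) lies on chromosome 1, bases 101687855 to 101692846, plus strand. Its level was 93.9, 91.6 and 99.0 FPKM in the 2-month libraries, 78.4, 77.3 and 76.0 FPKM in the 10-month libraries, and 34.6, 30.5 and 22.6 FPKM in the 20-month libraries. Every 20-month library was below every younger one, and the 10-month libraries were all below the 2-month ones. The means were 94.8 ± 3.82 FPKM at 2 months, 77.3 ± 1.19 FPKM at 10 months and 29.2 ± 6.12 FPKM at 20 months (SD, n = 3 each). On the log2(FPKM + 1) scale Dbp fell by 1.69 (SE 0.12) between 20 and 2 months, with a limma adjusted p of 3.63e-06, and by 1.39 (SE 0.12) between 20 and 10 months (limma adjusted p = 1.96e-05). These were the 75th and the 80th largest falls among the 11708 genes tested. Without 20-month replicate 3, the library with the highest sum of muscle markers, the change was -1.52 against 2 months. The difference of -0.29 between 10 and 2 months did not pass (limma adjusted p = 0.106); it passed with replicate 3 of 20 months left out of the shared fit (limma adjusted p = 0.0033) or with only these ages fitted (6.91e-04). In bulk tissue, fewer cells of a type and less RNA per cell cannot be told apart.

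The tables list 2 Dbp transcripts, and both were lower at 20 than at 2 months on average, the longer one by more. The transcript of 4 exons (ENSRNOT00000028546) averaged 21.1 ± 3.88 FPKM at 20 months, against 84.1 ± 3.89 FPKM at 2 months (SD, n = 3 each). The transcript of 3 exons (ENSRNOT00000091597) stood at 11.1, 16.2 and 16.5 FPKM at 2 months, at 5.81, 0 and 7.55 FPKM at 10 months, and at 13.4, 12.4 and 7.53 FPKM at 20 months. Its share of the 2 was 14.8 ± 2.92% in the 2-month, 5.65 ± 5.04% in the 10-month and 34.2 ± 3.15% in the 20-month libraries (SD, n = 3 each). The shares at 20 months lay above all younger ones, yet the test of transcript use did not pass (limma adjusted p = 0.0689 for 20 against 10 months and 0.372 for 20 against 2 months). The value listed at 0 in replicate 2 of 10 months widens the spread. Without that library the limma adjusted p was 0.0117 against 10 months and 0.0176 against 2 months. Of 22 transcripts of the clock genes, 6 from Dbp, Clock and Per3 could be tested, and 0 passed in any pairwise comparison, where 0.253% of all tested transcripts passed for 10 against 2 months, 10.8% for 20 against 2 months and 6.98% for 20 against 10 months. By limma without adjustment, at the same threshold of 0.05, the 2 Dbp transcripts passed for 20 against 10 months and 0 transcripts passed in the other comparisons.

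The period genes encode the repressors of the loop, and the 3 of them did not move together. Per1 (ENSRNOG00000007387, chromosome 10, bases 55687050 to 55695994, plus strand) is the family member that also responds quickly to outside signals such as glucocorticoids. It stood at 39.3, 37.5 and 38.6 FPKM at 2 months, at 38.0, 39.3 and 41.6 FPKM at 10 months, and at 55.1, 50.9 and 56.7 FPKM at 20 months. The 20-month libraries were all above the others, which overlapped. Per1 rose at 20 months by 0.48 on the log2 scale against 2 months (SE 0.05, limma adjusted p = 2.69e-05) and by 0.44 against 10 months (SE 0.05, limma adjusted p = 6.78e-05).

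Per3 (ENSRNOG00000018413, chromosome 5, bases 168086998 to 168123395, minus strand), whose RNA is strongly rhythmic in many rodent tissues, went the other way. Its levels were 17.6, 17.3 and 17.6 FPKM at 2 months, 19.7, 20.3 and 20.0 FPKM at 10 months, and 11.4, 9.45 and 8.54 FPKM at 20 months. The 3 ages did not overlap, with 10 months highest and 20 months lowest. Per3 fell by 0.78 (SE 0.08) at 20 months against 2 months and by 0.97 (SE 0.08) against 10 months, with limma adjusted p of 3.45e-05 and 1.71e-05. The difference of 0.18 between 10 and 2 months did not pass (limma adjusted p = 0.130), but did with only these ages fitted (0.00265).

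Per2 (ENSRNOG00000020254, chromosome 9, bases 98555169 to 98597359, minus strand), a core repressor whose loss disturbs the rhythm in mice, was higher at both older ages. It stood at 10.8, 11.1 and 10.9 FPKM at 2 months, at 15.8, 15.4 and 15.5 FPKM at 10 months, and at 12.4, 16.2 and 14.9 FPKM at 20 months. The 2-month libraries lay below all others, while the older ages overlapped. Per2 rose by 0.47 (SE 0.08) at 10 months (limma adjusted p = 0.00259) and by 0.37 (SE 0.08) at 20 months (limma adjusted p = 0.00284), both against 2 months. The value of -0.10 for 20 against 10 months, 95% interval -0.29 to 0.08, did not pass (limma adjusted p = 0.281).

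Within each library, ratios between clock genes do not depend on how libraries are scaled. Per3 made up 10.7 to 14.5% of the summed period FPKM in 20-month libraries, against 26.0 to 27.0% in 10-month and 26.0 to 26.3% in 2-month libraries. Per1 made up 56.9 to 58.1% in 2-month, 51.7 to 54.0% in 10-month and 66.5 to 70.7% in 20-month libraries. The period pool thus held a larger part of Per1 and a smaller part of Per3 in all 20-month libraries. The sum of the 3 period genes itself was 66.9 ± 0.868 FPKM at 2 months, 75.2 ± 1.79 FPKM at 10 months and 78.5 ± 1.87 FPKM at 20 months (SD, n = 3 each).

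Arntl encodes BMAL1, the partner that the loop cannot do without in mice, and its RNA is repressed by the REV-ERB receptors. The gene (ENSRNOG00000014448) lies on chromosome 1, bases 178039063 to 178137465, plus strand. Its levels were 13.2, 11.9 and 13.4 FPKM at 2 months, 14.98, 14.2 and 13.9 FPKM at 10 months, and 17.4, 16.9 and 22.3 FPKM at 20 months. No library of an older age overlapped with a younger one, and replicate 3 of 20 months was the highest. Arntl rose by 0.52 (SE 0.10) at 20 months against 2 months (limma adjusted p = 0.00112) and by 0.36 (SE 0.10) against 10 months (limma adjusted p = 0.00893). Without 20-month replicate 3 these were 0.40 and 0.24 (limma adjusted p = 5.35e-04 and 0.00803). The difference of 0.16 between 10 and 2 months did not pass (limma adjusted p = 0.251).

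Clock (ENSRNOG00000002175, chromosome 14, bases 34446616 to 34502218, plus strand), whose RNA is flat over the day in many rodent tissues, passed in 0 of the 3 comparisons. It stood at 7.18, 6.67 and 6.66 FPKM at 2 months, at 6.63, 7.16 and 6.48 FPKM at 10 months, and at 6.40, 6.16 and 5.88 FPKM at 20 months. The 20-month libraries were lowest, and the younger ages overlapped. The change at 20 against 2 months was -0.13 on the log2 scale, 95% interval -0.26 to -0.01 (limma adjusted p = 0.0617), and the test for any difference among the ages did not pass either (limma adjusted p = 0.102). Npas2, the close relative that can stand in for Clock, averaged 2.56 ± 0.159 FPKM at 2 months, 1.34 ± 0.0778 FPKM at 10 months and 1.23 ± 0.474 FPKM at 20 months (SD, n = 3 each). It fell by 0.60 (SE 0.13) at 10 months against 2 months (limma adjusted p = 0.00903).

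Dbp and Arntl, which lie at opposite phases of the cycle in rodent tissues, were closer in level at the older ages. The ratio of Dbp to Arntl FPKM was 7.11, 7.72 and 7.42 in the 2-month libraries, 5.23, 5.44 and 5.46 in the 10-month libraries, and 1.99, 1.80 and 1.01 in the 20-month libraries. In every 2- and 10-month library Dbp exceeded Arntl more than 5-fold, and in replicate 3 of 20 months the levels were about equal. On the log2(FPKM + 1) scale the difference of Dbp minus Arntl averaged 2.80 ± 0.05 in the 2-month, 2.35 ± 0.03 in the 10-month and 0.59 ± 0.50 in the 20-month libraries (SD, n = 3 each). The wider contrast, the mean of Per1, Per2, Per3, Nr1d1, Nr1d2 and Dbp minus the mean of Arntl, Clock, Npas2 and Cry1, differed far less, with 2.31 ± 0.05 for 2-month, 2.37 ± 0.03 for 10-month and 2.12 ± 0.17 for 20-month libraries. It lay between 1.93 and 2.25 in 20-month libraries and between 2.25 and 2.41 in the others. No test was made of these ratios, since the genes were chosen with their values known.

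**Figure D2:**
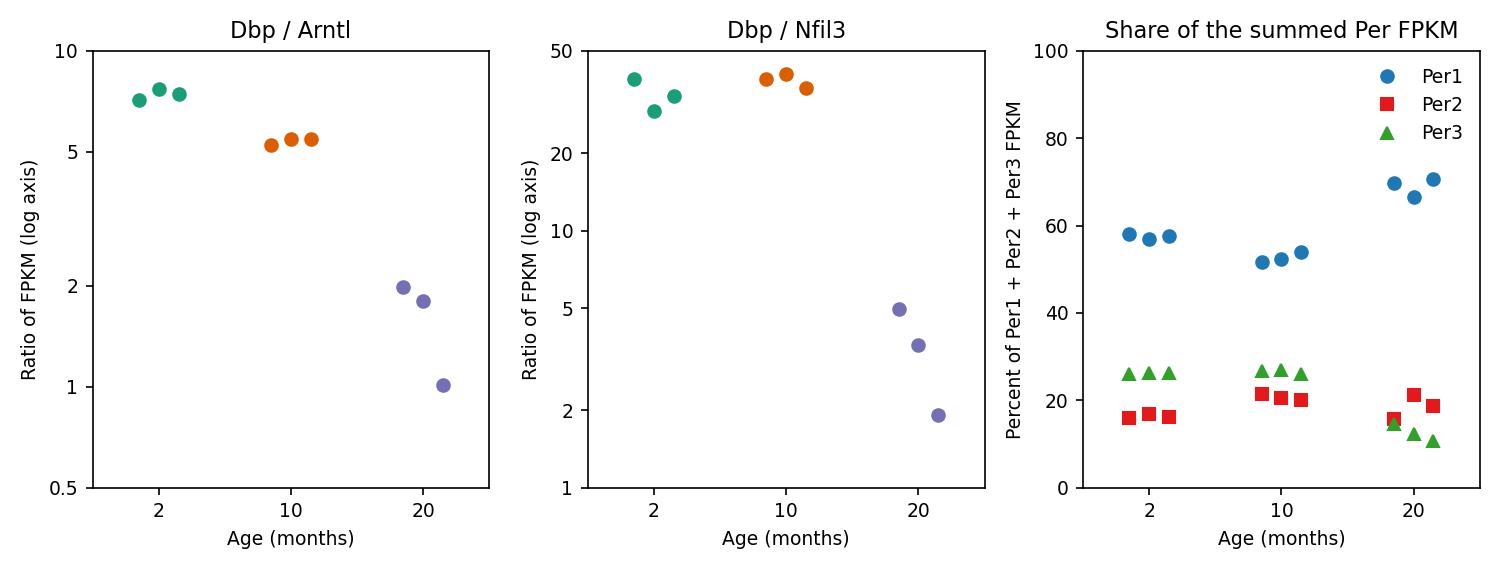
Left and centre, the ratio of Dbp FPKM to Arntl and to Nfil3 FPKM per library (log axes); right, the percent of the summed Per1, Per2 and Per3 FPKM held by each gene (linear axis), all at 2, 10 and 20 months with replicates 1 to 3 from left to right. All 20-month libraries lie below the younger ones in both ratios, and Per3 holds 10.7 to 14.5% of the period sum there.

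Nr1d1 and Nr1d2 encode the receptors REV-ERB alpha and REV-ERB beta, which bind heme and repress Arntl. Nr1d1 (ENSRNOG00000009329) lies on chromosome 10, bases 86683875 to 86690815, minus strand. It stood at 48.2, 48.5 and 46.2 FPKM at 2 months, at 35.8, 36.2 and 35.5 FPKM at 10 months, and at 54.9, 43.2 and 47.4 FPKM at 20 months. The 10-month libraries were lowest, and the other ages overlapped. Nr1d1 fell by 0.40 (SE 0.07) at 10 months against 2 months (limma adjusted p = 0.00367) and rose by 0.42 (SE 0.07) at 20 months against 10 months (limma adjusted p = 8.83e-04). For 20 against 2 months the change was 0.02, 95% interval -0.15 to 0.18 (limma adjusted p = 0.824), and it was 0.25 after scaling by the median ratio of all genes (limma adjusted p = 0.0104). The ends of Nr1d1 and of Thra, a thyroid hormone receptor gene on the other strand, overlap by 1059 bases, and reads there cannot be told apart where strand is not known. Thra averaged 30.9 ± 0.672 FPKM at 2 months, 27.2 ± 0.47 FPKM at 10 months and 24.4 ± 1.34 FPKM at 20 months (SD, n = 3 each).

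Nr1d2 (ENSRNOG00000046912, chromosome 15, bases 8730871 to 8757165, plus strand) had the reverse pattern. Its levels were 20.6, 21.0 and 20.3 FPKM at 2 months, 24.6, 24.9 and 23.1 FPKM at 10 months, and 19.6, 19.0 and 18.8 FPKM at 20 months. The 10-month libraries were highest and the 20-month libraries lowest, with no overlap. Nr1d2 rose by 0.22 (SE 0.04) at 10 months against 2 months (limma adjusted p = 0.00397). For 20 against 10 months it fell by 0.33 (SE 0.04, limma adjusted p = 1.29e-04), but the value after median-ratio scaling was -0.07 (limma adjusted p = 0.161). For 20 against 2 months the sign hung on the scaling, with -0.11 as deposited (limma adjusted p = 0.0403) and 0.11 after median-ratio scaling (limma adjusted p = 0.0287). Without 20-month replicate 3 it was -0.09 and did not pass (limma adjusted p = 0.0882). The ratio of Nr1d1 to Nr1d2, which needs no scaling, was 2.27 to 2.33 in 2-month, 1.45 to 1.54 in 10-month and 2.28 to 2.80 in 20-month libraries.

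The cryptochromes bind the period proteins and are the stronger repressors of CLOCK and BMAL1. Cry1 (ENSRNOG00000006622, chromosome 7, bases 24534615 to 24634097, plus strand) stood at 3.13, 3.20 and 2.53 FPKM at 2 months, at 4.37, 4.19 and 3.74 FPKM at 10 months, and at 2.87, 2.88 and 2.63 FPKM at 20 months. The 10-month libraries were above all others, and the remaining ages overlapped. Cry1 rose by 0.37 (SE 0.08) at 10 months against 2 months (limma adjusted p = 0.0107). It fell by 0.42 (SE 0.08) at 20 months against 10 months (limma adjusted p = 0.00195), a call that was lost after median-ratio scaling (-0.22, limma adjusted p = 0.0519). For 20 against 2 months the value was -0.06, 95% interval -0.25 to 0.14 (limma adjusted p = 0.582).

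Cry2 (ENSRNOG00000007478, chromosome 3, bases 81314149 to 81344110, minus strand) had 15.7 times the FPKM of Cry1 on average at 2 months, 11.5 times at 10 months and 14.5 times at 20 months. It stood at 45.6, 45.8 and 46.0 FPKM at 2 months, at 46.5, 46.7 and 47.7 FPKM at 10 months, and at 44.2, 40.4 and 36.8 FPKM at 20 months. The ages did not overlap, and the 20-month libraries were lowest. As deposited, Cry2 fell by 0.18 (SE 0.06) at 20 months against 2 months and by 0.21 (SE 0.06) against 10 months (limma adjusted p = 0.0210 and 0.00946), but both values were 0.05 after median-ratio scaling (limma adjusted p = 0.451 and 0.459). Without 20-month replicate 3 the value against 2 months was -0.11 (limma adjusted p = 0.0401). Its fall is close to that of the middle gene of the whole profile, which is given next.

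Set against all genes, the count of clock genes called was near the background. Between 10 and 2 months 4 of the 10 passed at a limma adjusted p under 0.05, namely Per2, Cry1 and Nr1d2 higher and Nr1d1 lower, where 30.3% of all tested genes passed, 19% higher and 11.4% lower. Between 20 and 2 months 7 passed, with Per1, Per2 and Arntl higher and Dbp, Per3, Cry2 and Nr1d2 lower, where 68.2% of tested genes passed, 18.6% higher and 49.6% lower. Between 20 and 10 months 8 passed, with Per1, Arntl and Nr1d1 higher and Dbp, Per3, Cry1, Cry2 and Nr1d2 lower, where 64.7% of tested genes passed, 11.4% higher and 53.3% lower. In the test for any difference among the ages 9 passed, all but Clock, where 75.4% of tested genes did. The comparisons share libraries: the same 2-month set serves both older ages, and the 20-month set serves both younger ones.

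The middle of the whole profile also differed between ages. The median log2 change over all tested genes was -0.20 for 20 against 2 months, -0.23 for 20 against 10 months and 0.04 for 10 against 2 months, and the median over the clock genes was -0.08 for 20 against 2 months, -0.17 for 20 against 10 months and 0.10 for 10 against 2 months. Scaling each library by its median ratio to the mean profile shifted the median of all genes by 0.21 for 20 against 2 months, by 0.24 for 20 against 10 months and by -0.03 for 10 against 2 months. After it, 5 clock genes were higher and 2 lower for 20 against 2 months, where 62.4% of genes passed (31.1% higher and 31.2% lower), and 3 were higher and 2 lower for 20 against 10 months, where 52.5% passed (26.8% higher and 25.7% lower). Dbp and Per3 remained lower and Per1 and Arntl higher at 20 months under either scaling, against both younger ages. The libraries of the ages compared did not overlap for 8 clock genes between 10 and 2 months (53.8% of all tested genes), for 8 between 20 and 2 months (70.4%) and for 9 between 20 and 10 months (67.9%).

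**Figure D3:**
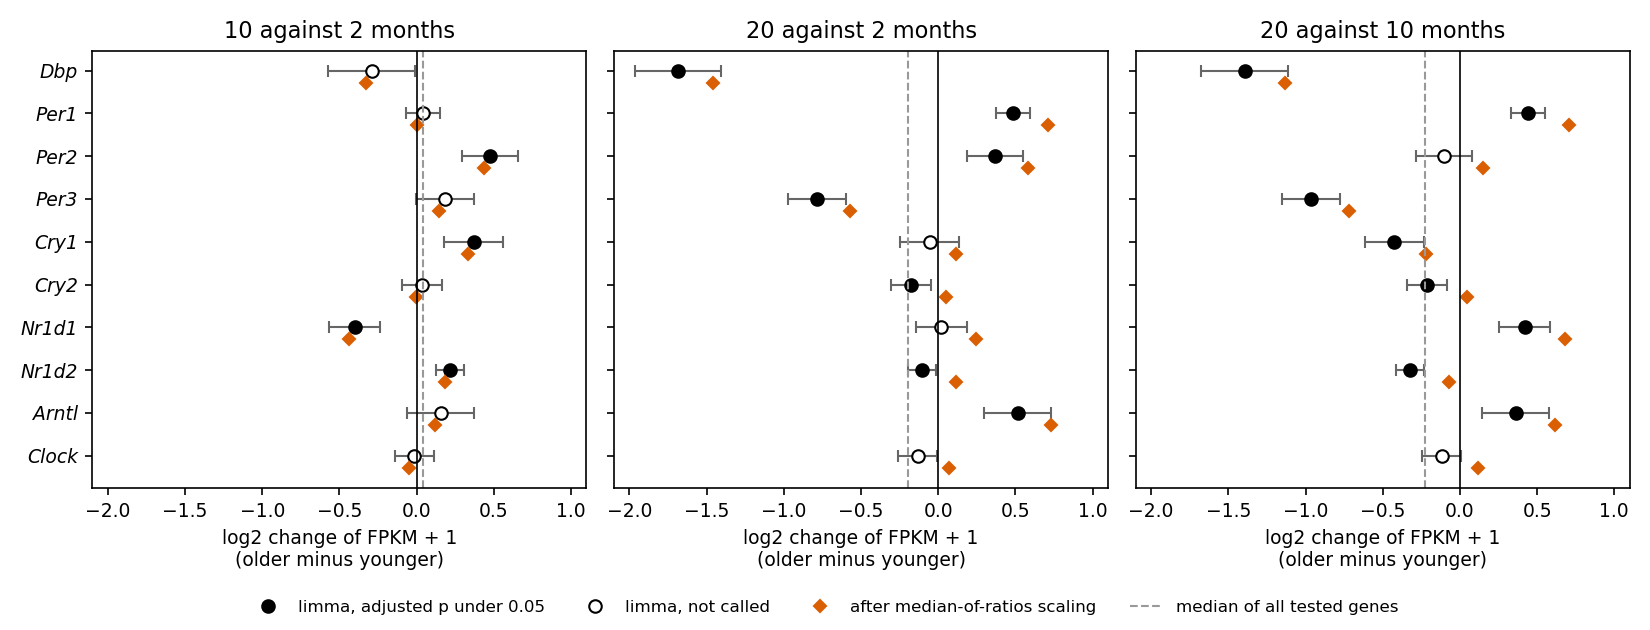
Change of the 10 clock genes on the log2(FPKM + 1) scale, older minus younger, with 95% intervals from limma; filled circles passed an adjusted p under 0.05, diamonds give the value after median-ratio scaling, and the dashed line is the median of all tested genes. Dbp (-1.69) and Per3 (-0.78) stand far left of that line for 20 against 2 months, and Cry2 (-0.18) stands on it.

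Within the 20-month set, replicate 3 had the lowest level of Dbp, Per3, Cry1, Cry2, Clock and Nr1d2 and the highest of Per1 and Arntl. It was also the library in which the muscle markers summed to 306 FPKM, against 5.53 and 5.58 FPKM in its companions. Without it, 6 clock genes passed for 20 against 2 months, where 66.3% of all tested genes passed, and 8 for 20 against 10 months, where 63.4% did. In the fit of the remaining libraries 5 passed for 10 against 2 months, where 34.6% of all tested genes passed. Dbp, Per3, Per1 and Arntl passed against both younger ages then too, in the same directions.

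Genes outside the clock whose profile was most like that of Dbp over the 9 libraries, by the root mean square difference of z-scored log2 values, were Tbc1d13 (0.0324), Gstm1 (0.048), Zfp467 (0.0496) and Tmem189 (0.0521). Gstm1, a glutathione transferase, stood at 54.0, 51.8 and 44.0 FPKM at 20 months and at 83.7, 84.3 and 86.7 FPKM at 2 months. Among the clock genes Per3 was the nearest to Dbp (0.326) and Arntl the second farthest (1.85), just ahead of Per1 (1.87). The nearest profiles to Arntl were less close, with Mff (0.227), SNORD18 (0.238), Ifit2 (0.25) and Akap12 (0.253), and among the clock genes Per1 (0.423). Akap12, a scaffold protein for protein kinase A, stood at 246, 299 and 437 FPKM at 20 months and at 114, 113 and 116 FPKM at 2 months.

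Of 11 further transcription factors of the clock loops, 8 were tested. Rorb was not in the table, and Arntl2 and Hlf were too low. For 10 against 2 months 1 rose and 3 fell, for 20 against 2 months 2 rose and 4 fell, and for 20 against 10 months 1 rose and 3 fell. Of all tested genes 30.3% passed for 10 against 2 months, 68.2% for 20 against 2 months and 64.7% for 20 against 10 months. Their median log2 change for 20 against 2 months was -0.30, beside -0.20 over all tested genes. The relatives of Dbp that share its target sequence moved apart. Tef, a close relative of Dbp that also activates through the D-box, stood at 36.8, 36.5 and 36.4 FPKM at 2 months, at 39.5, 38.9 and 38.6 FPKM at 10 months, and at 25.7, 23.3 and 21.9 FPKM at 20 months. Nfil3, the repressor that competes for the D-box, stood at 2.42, 3.15 and 2.96 FPKM at 2 months, at 2.03, 1.91 and 2.13 FPKM at 10 months, and at 6.98, 8.48 and 11.7 FPKM at 20 months. The 20-month libraries were thus lowest for Tef and highest for Nfil3, without overlap. Tef fell by 0.61 (SE 0.05) against 2 months and Nfil3 rose by 1.37 (SE 0.15), with limma adjusted p of 8.67e-06 and 4.87e-05. The rise of Nfil3 was 1.18 when 20-month replicate 3 was left out. The ratio of Dbp to Nfil3 was 29.1 to 38.8 in 2-month, 35.7 to 40.6 in 10-month and 1.92 to 4.96 in 20-month libraries.

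Bhlhe40 and Bhlhe41 encode the DEC proteins, E-box repressors that CLOCK and BMAL1 switch on. Bhlhe41 stood at 47.4, 44.0 and 46.9 FPKM at 2 months, at 38.4, 36.7 and 37.1 FPKM at 10 months, and at 17.0, 15.7 and 15.2 FPKM at 20 months. It was lower at each older age without overlap, as Dbp was. Bhlhe41 fell by 0.30 (SE 0.05) at 10 months and by 1.47 (SE 0.05) at 20 months, both against 2 months (limma adjusted p = 0.0022 and 6.04e-08). Bhlhe40, the more abundant relative, averaged 205 ± 2.67 FPKM at 2 months, 179 ± 0.858 FPKM at 10 months and 117 ± 10.0 FPKM at 20 months (SD, n = 3 each), and fell by 0.81 (SE 0.05) at 20 months against 2 months (limma adjusted p = 1.79e-06). Its call for 10 against 2 months (-0.20, limma adjusted p = 0.0217) was lost in 6 of 9 fits that left out 1 library, with p up to 0.0687. Ciart, a repressor with a strong rhythm in rodent liver, stood between 3.12 and 5.51 FPKM in all libraries and did not pass in any comparison (limma adjusted p = 0.941 for 20 against 2 months).

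Promoter windows from RefSeq (build GRCr8, 250 bases before to 50 bases after a start site) were found for 9 of the 10 clock genes, in 11 windows. The motifs searched on both strands were the E-box CACGTG, its variant CACGTT, the D-box TTANGTAA, the REV-ERB and ROR element (AANT followed directly by AGGTCA) and the cAMP response element TGACGTCA. Of 33469 windows in the table, 6.42% held CACGTG, 4.83% CACGTT, 2.24% TTANGTAA, 0.245% the REV-ERB and ROR element and 1.83% TGACGTCA. A match to one motif could overlap a match to another, and no match in the sequences below did. Matches are given as descriptions of these windows, and positions count from the start site.

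Of the windows with a match 5 are shown, to give an example of the E-box, its variant, the D-box and the REV-ERB and ROR element, with the matches in capitals; others are named after them. That of Arntl (chr1:176766078-176766377, plus strand) holds the REV-ERB and ROR element at -19. Per2 (chr9:99496944-99497243, minus strand) has a D-box at -192 and the E-box variant at -62. The second window of Nr1d1 (chr10:84229405-84229704, minus strand) has an E-box at -191, Tef (chr7:115206577-115206876, plus strand) at -198 and Bhlhe41 (chr4:180569306-180569605, minus strand) at -48.
Arntl: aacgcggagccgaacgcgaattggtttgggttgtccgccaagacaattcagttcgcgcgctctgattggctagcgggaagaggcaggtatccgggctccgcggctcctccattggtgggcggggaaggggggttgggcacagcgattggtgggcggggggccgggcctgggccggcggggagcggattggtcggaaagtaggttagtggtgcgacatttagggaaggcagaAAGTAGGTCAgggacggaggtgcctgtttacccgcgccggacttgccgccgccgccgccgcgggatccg
Per2: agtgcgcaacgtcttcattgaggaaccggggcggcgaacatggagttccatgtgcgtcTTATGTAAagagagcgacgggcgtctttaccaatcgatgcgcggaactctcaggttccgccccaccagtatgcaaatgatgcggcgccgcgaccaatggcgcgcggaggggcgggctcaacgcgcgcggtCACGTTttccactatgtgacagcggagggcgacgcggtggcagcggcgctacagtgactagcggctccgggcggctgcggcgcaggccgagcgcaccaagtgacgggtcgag
Nr1d1: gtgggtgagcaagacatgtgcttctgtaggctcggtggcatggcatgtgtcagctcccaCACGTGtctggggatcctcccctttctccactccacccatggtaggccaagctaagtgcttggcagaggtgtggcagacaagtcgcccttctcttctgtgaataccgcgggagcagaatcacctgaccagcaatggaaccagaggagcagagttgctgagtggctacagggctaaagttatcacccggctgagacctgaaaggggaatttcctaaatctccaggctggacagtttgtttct
Tef: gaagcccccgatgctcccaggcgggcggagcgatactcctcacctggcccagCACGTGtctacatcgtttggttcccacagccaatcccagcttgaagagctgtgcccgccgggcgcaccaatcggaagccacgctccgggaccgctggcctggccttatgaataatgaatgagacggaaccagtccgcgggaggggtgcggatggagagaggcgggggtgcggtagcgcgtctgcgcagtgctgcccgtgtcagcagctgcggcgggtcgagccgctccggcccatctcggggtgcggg
Bhlhe41: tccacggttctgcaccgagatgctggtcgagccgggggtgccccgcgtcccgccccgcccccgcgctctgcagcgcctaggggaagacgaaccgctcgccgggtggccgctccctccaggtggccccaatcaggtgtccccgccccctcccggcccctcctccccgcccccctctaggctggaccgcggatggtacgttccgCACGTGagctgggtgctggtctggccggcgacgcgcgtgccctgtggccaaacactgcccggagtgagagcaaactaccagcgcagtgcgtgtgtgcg

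Cry2 and the first window of Nr1d1 hold the E-box variant at -212 and -174, and 6 of the 11 windows of clock genes hold no match, among them those of Dbp, Per1 and Per3. Windows of this length leave out introns and distant elements. Outside the 10 genes, Bhlhe40 has an E-box at -220 and Ciart has 3, at -93, -35 and -21. Of the genes whose windows hold CACGTG, Bhlhe41, Bhlhe40 and Tef fell at 20 against 2 months, where 49.6% of all tested genes fell. Ciart at 0.01 and Nr1d1 at 0.02 on the log2 scale did not pass. A link between motif and change was not tested.

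Of 15 listed genes for proteins that modify or bind clock proteins, the RNA of 13 was tested. Between 20 and 2 months 2 rose and 8 fell, where 18.6% of all tested genes were higher and 49.6% lower, and after median-ratio scaling 4 rose and 5 fell, where 31.1% were higher and 31.2% lower. Their median change was -0.21, beside -0.20 over all tested genes. Fbxl21, a ligase subunit that acts on cryptochromes, rose by 0.50 (SE 0.08) at 20 months against 2 months (limma adjusted p = 6.32e-04). Cipc, a repressor that binds CLOCK, averaged 10.04 ± 0.222 FPKM at 20 months, against 17.5 ± 0.48 FPKM at 2 months, a fall of 0.74 (SE 0.04, limma adjusted p = 6.02e-07). Gsk3b, a kinase with several clock proteins among its targets, stood at 10.7, 10.54 and 10.7 FPKM at 20 months and at 19.0, 19.1 and 17.7 FPKM at 2 months. It fell by 0.75 (SE 0.06, limma adjusted p = 4.85e-06), and Csnk2a1, a catalytic subunit of casein kinase 2, fell by 0.53 (SE 0.05, limma adjusted p = 2.40e-05). Between 10 and 2 months 4 of the 13 rose and 0 fell, where 19% of all tested genes were higher and 11.4% lower. Of these 4, Csnk1e and Fbxw11 lost their call in 6 and 5 of 9 fits that left out 1 library and both lost it after median-ratio scaling. Between 20 and 10 months 1 rose and 8 fell (11.4% and 53.3% of all tested genes), or 3 and 4 after median-ratio scaling (26.8% and 25.7%), with Ncor1, a co-repressor that REV-ERB receptors recruit, at -0.40 (SE 0.04, limma adjusted p = 4.37e-05).

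Genes with clock-driven rhythms in several rodent tissues were split. Of 14 listed, 12 were tested and all 12 passed between 20 and 2 months, with 6 higher and 6 lower, or 6 and 2 after median-ratio scaling (31.1% and 31.2% of all tested genes). Their median change was -0.01, beside -0.20 over all tested genes, of which 68.2% passed, 18.6% higher and 49.6% lower. Cdkn1a, which encodes the cell cycle inhibitor p21, averaged 6.24 FPKM at 2 months, 7.20 FPKM at 10 months and 23.5 FPKM at 20 months, and rose by 1.72 (SE 0.17, limma adjusted p = 1.96e-05) for 20 against 2 months. Klf9, a Krüppel-like factor that glucocorticoids induce, stood at 16.6, 12.1 and 19.2 FPKM at 20 months and at 8.41, 8.25 and 7.65 FPKM at 2 months, a rise of 0.87 (SE 0.13, limma adjusted p = 3.07e-04). Pdk4, which shuts pyruvate out of oxidation, rose by 1.88 (SE 0.27, limma adjusted p = 0.001) at 10 months against 2 months. Por, the electron donor of cytochrome P450 enzymes, fell by 0.80 (SE 0.11, limma adjusted p = 2.87e-04) at 20 against 10 months. Gys1, muscle glycogen synthase, fell by 0.30 (SE 0.03, limma adjusted p = 4.28e-05) at 20 against 2 months and no longer passed after median-ratio scaling (-0.08, limma adjusted p = 0.0929). Between 10 and 2 months 2 rose and 2 fell, where 30.3% of all tested genes passed. Between 20 and 10 months 3 rose and 4 fell (11.4% and 53.3% of all tested genes), or 7 and 1 after median-ratio scaling (26.8% and 25.7%).

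Glucocorticoid-responsive genes follow a daily hormone rhythm in rodents, and Tsc22d3 and Klf9 stand in this list and in the last. Of 12 listed, 10 were tested, and 6 rose and 1 fell at 20 months against 2 months, and likewise against 10 months. Of all tested genes 18.6% were higher and 49.6% lower against 2 months, and 11.4% higher and 53.3% lower against 10 months. After median-ratio scaling 8 of the list rose and 1 fell against 2 months (31.1% and 31.2% of all tested genes), and 7 rose and 1 fell against 10 months (26.8% and 25.7%). Without 20-month replicate 3, 7 rose and 2 fell against either age. Of all tested genes 66.3% then passed against 2 months and 63.4% against 10 months. With all libraries and no scaling, the median change of the list was 0.43 against 2 months and 0.44 against 10 months. Over all tested genes it was -0.20 and -0.23. Tsc22d3, which encodes the glucocorticoid-induced protein GILZ, stood at 101, 101 and 106 FPKM at 2 months, at 87.0, 81.9 and 79.8 FPKM at 10 months, and at 157, 147 and 156 FPKM at 20 months. The 3 ages did not overlap, with 10 months lowest and 20 months highest. It fell by 0.30 (SE 0.04) at 10 months and rose by 0.58 (SE 0.04) at 20 months, both against 2 months (limma adjusted p = 8.81e-04 and 3.52e-06). Sgk1, a kinase induced by the hormone, averaged 10.0 FPKM at 2 months, 6.30 FPKM at 10 months and 10.1 FPKM at 20 months. The metallothionein genes Mt2A and Mt1, which share much sequence and are uncertain to the extent that reads could be split between them, went apart. The row of Mt2A lies on chromosome 19, bases 11307967 to 11308740, and that of Mt1 on chromosome 17, bases 78793336 to 78793724. Mt1 was the 1 gene of the list that fell at 20 months as deposited, and whether its row is the gene itself was not tested. Mt2A averaged 180 FPKM at 2 months, 339 FPKM at 10 months and 699.7 FPKM at 20 months, while Mt1 averaged 104 FPKM at 2 months, 168 FPKM at 10 months and 65.1 FPKM at 20 months. Between 10 and 2 months 2 genes of the list rose and 2 fell, where 19% of all tested genes were higher and 11.4% lower.

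Immediate early genes can switch on within minutes of handling or stress. Whether their values here reflect the collection of the tissue was not tested. Of 16 listed, 13 were tested, and between 20 and 2 months 3 rose and 3 fell (18.6% and 49.6% of all tested genes), or 5 and 1 after median-ratio scaling (31.1% and 31.2%). Their median change was 0.01, beside -0.20 over all tested genes. Zfp36, which encodes an RNA-binding protein that destabilises cytokine messages, stood at 44.2, 53.1 and 84.8 FPKM at 20 months and at 19.2, 18.3 and 18.5 FPKM at 2 months, a rise of 1.60 (SE 0.19, limma adjusted p = 7.47e-05). That rise was 1.33 when 20-month replicate 3 was left out. Ccn1, a matricellular protein gene, averaged 97.1 FPKM at 2 months, 52.3 FPKM at 10 months and 135 FPKM at 20 months, and rose by 1.35 (SE 0.09, limma adjusted p = 4.01e-06) at 20 against 10 months. Ier3 fell by 0.77 (SE 0.09, limma adjusted p = 5.55e-05) for 20 against 2 months. Fos stood at 21.8, 35.0 and 46.3 FPKM at 20 months and at 24.1, 25.7 and 22.7 FPKM at 2 months and did not pass (limma adjusted p = 0.103). Between 10 and 2 months 0 rose and 2 fell, Ccn1 and Btg2 (19% and 11.4% of all tested genes). When 20-month replicate 3 was left out of the shared fit 9 fell, where 34.6% of all tested genes passed in either direction. Between 20 and 10 months 5 rose and 1 fell (11.4% and 53.3% of all tested genes), or 9 and 1 after median-ratio scaling (26.8% and 25.7%), with Atf3 at 1.14 (SE 0.20, limma adjusted p = 8.64e-04). Atf3 was at 0.86 when 20-month replicate 3 was left out.

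**Figure D4:**
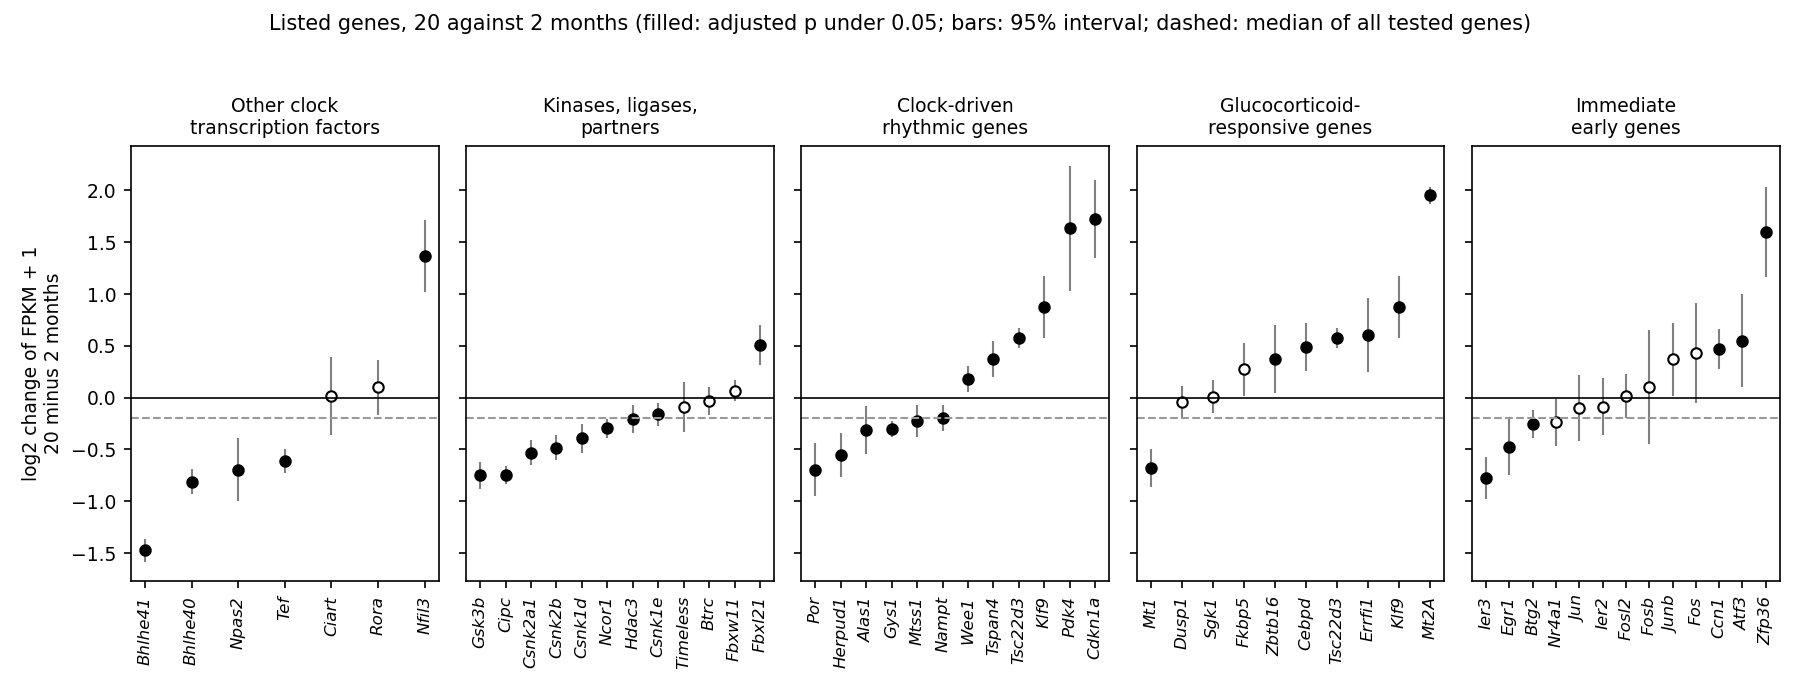
Change of the tested members of the 5 lists that are reported here on the log2(FPKM + 1) scale, 20 minus 2 months, with 95% limma intervals; filled circles passed an adjusted p under 0.05 and the dashed line is the median of all tested genes (-0.20). Bhlhe41 is lowest and Nfil3 highest among the clock transcription factors, and most glucocorticoid-responsive genes lie above 0.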

How the data were processed

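RNA of 9 input libraries was analysed, 3 per age, grouped by the age and number in their titles. The labels also list 9 immunoprecipitated libraries, which are not analysed here. Per the file headers, the deposited gene table gives FPKM per gene, and the deposited isoform table gives FPKM and coverage (signal, mean reads per base) per transcript. Tools named by the submitters' processing notes include StringTie 1.3.4d, HISAT2 2.0.4 and cutadapt 1.9. Not given in the sources used here are the genome build, annotation version and strandedness; gene coordinates are printed as tabulated. Counts were not used here: bases per library were taken from the constant ratio of FPKM to coverage, fragments per gene from bases over 2 read lengths, and these are estimates.

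A gene entered the test with 1 FPKM or more in 3 or more of the 9 libraries, which left 11708 of 18923. The test was that of limma (version 3.58.1, R version 4.3.3, with a trended prior) for log2(FPKM + 1), in 1 fit over the 9 libraries, with Benjamini-Hochberg adjustment over all tested genes and calls under 0.05. This scale understates changes of low genes. Exact permutation of 3 against 3 libraries cannot go below 0.1, so no such test was used. Transcript use was tested on the log2 ratio of a transcript to the others of its gene with 0.5 added, for 2765 transcripts of genes with a summed FPKM of at least 5 and mean shares of 10 to 90%. The test was run on simulated data, and no result of that check is used here. Simulated data cannot show whether these libraries stand for different animals. The check is therefore no evidence that the p-values hold for these libraries, whose scatter was wider at the oldest age. The members, lists, markers and naming rule (up to 4 called genes per list and comparison by smallest adjusted p) were chosen with earlier results of these data known; the E-box variant, the ratios between genes, Thra, Ciart and Fos were added after values were seen. Alternatives were pseudocounts 0.1 and 5, other filters, median-ratio and quantile scaling, array weights, no trend, only the ages compared, each library left out, and the replicate number as a block. Same-numbered libraries correlated weakly after removal of age means, which cannot decide whether the numbers pair samples. Some list members are counted in the lists but not reported here by name.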

Additional observations from a re-analysis of the deposited data

How the results depend on the processing

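Over the alternatives 1726 values of the clock genes and named list genes kept direction and side of the threshold. Of the rest, 52 lost their call, 12 gained one and 18 changed sign. The list genes were named by smallest adjusted p in these same data. Leaving out a library of an age not compared cannot change a log2 difference. The tally is therefore no measure of how robust the clock gene calls are. With median-ratio scaling, 5 instead of 8 clock genes passed for 20 against 10 months, where 52.5% instead of 64.7% of all tested genes passed. Log2 changes with the other sign were then -0.00143 for Cry2 at 10 against 2 months. At 20 against 2 months they were 0.0665 for Clock, 0.117 for Cry1, 0.0477 for Cry2 and 0.113 for Nr1d2. At 20 against 10 months they were 0.114 for Clock, 0.0492 for Cry2 and 0.148 for Per2. With quantile normalization they were 0.0408 for Clock, 0.103 for Cry1 and 0.0644 for Nr1d2 at 20 against 2 months, and 0.117 for Clock and 0.104 for Per2 at 20 against 10 months. Nr1d1 at 20 against 2 months was -0.0058 with array weights, -0.00168 without 2-month replicate 3 and -0.0713 without 20-month replicate 1, within a range of -0.0713 to 0.0977 when 1 library was left out. Clock at 10 against 2 months was 0.0164 without 2-month replicate 1 and 0.0108 without 10-month replicate 3, within a range of -0.0518 to 0.0164. The fall of Nr1d2 at 20 against 2 months was lost in 7 of 9 fits that left out 1 library (adjusted p from limma up to 0.120), and that of Cry2 in 2 of 9 (up to 0.0539). The causes were not tested.

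Transcripts of clock genes that passed ranged from 0 to 2 when 1 library was left out, for 20 against 2 and for 20 against 10 months. With 2 added to the ratio, 2 passed for 20 against 10 months, where 8.5% of all tested transcripts passed. The 3-exon transcript of Dbp was among them each time, and the 2 Dbp ratios mirror each other. With a pseudocount of 0.1, Dbp minus Arntl was 2.88 at 2 months and 2.42 at 10 months, and the wider contrast 2.52 at 2 months, 2.64 at 10 months and 2.41 at 20 months. Of the neighbours in the level order at 20 months 3 overlapped, and from 1 to 2 did when 1 of the 20-month libraries was left out. Same-numbered libraries of different ages correlated at -0.04 to 0.05 after removal of age means, with 0 of 9 pairs above 0.1. Of the 9 libraries, 4 matched their own number best. Scatter at 2 and 10 months was close to that of read counting, so these values cannot decide whether the numbers pair samples. With the replicate block 4 clock genes passed for 10 against 2 months (27.2% of all tested genes) and 7 for 20 against 2 months (67.1%). For 20 against 10 months 8 passed (63.8%), and 9 in the test for any difference (73.9%). With that block 0 transcripts of clock genes passed, where 0.253% of all tested transcripts passed for 10 against 2 months, 4.38% for 20 against 2 months and 2.57% for 20 against 10 months. Depth limits Cry1 most.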
